A study of Mus musculus with 12 samples.

Results

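Tet1, Tet2 and Tet3, which encode the methylcytosine dioxygenases, and Tdg, which encodes thymine DNA glycosylase, were followed on one-colour Agilent microarrays of mouse embryonic stem (ES) cells in which a regulator of DNA methylation or chromatin had been depleted. The measurements were the probes whose accession maps to 1 of the 4 gene symbols. The 4 genes were among 20659 genes named on the array and had 10 of its 39429 probes, with 2 for Tet1, 2 for Tet2, 3 for Tet3 and 3 for Tdg. All 10 were among the 35699 probes that passed the filter on dim signal and were tested. Total RNA came from E14 cells, a mouse ES cell line, grown without feeder cells on gelatin in serum with LIF and collected 48 hr after transfection of 1 dish per sample with endoribonuclease-prepared siRNA (esiRNA). There were 6 groups of 2 arrays, which the study's methods call biological replicates. The control received esiRNA against EGFP (EGFP KD), and the others received esiRNA against Chd4, Mbd2, Mbd3, Dnmt1 or Tet1 and are named in the same way. A knockdown of this kind is transient, leaves a remainder of the target mRNA and averages over transfected and untransfected cells. Fewer expressing cells and less mRNA per cell therefore cannot be told apart.

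The Tet enzymes oxidise 5-methylcytosine to 5-hydroxymethylcytosine and then to 5-formylcytosine and 5-carboxylcytosine, with 2-oxoglutarate and iron as cofactors. Tdg cuts the last oxidised bases out of DNA, and base excision repair then puts back an unmodified cytosine. Tet1 and Tet2 are the forms known to be abundant in mouse ES cells, whereas Tet3 is best known from the oocyte and zygote. Dnmt1 copies methylation after replication, Mbd2 and Mbd3 are methyl-CpG-binding domain proteins of the NuRD complex, and Chd4 is the remodelling ATPase of that complex.

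Values are log2 of the processed Cy3 signal over the 75th percentile of the same array, and a difference is a KD value minus the EGFP KD mean of the same probe. Each difference was tested with limma over the 12 arrays, and p was adjusted over all 35699 probes of a comparison, with 0.05 as threshold. Of the ES cell markers, Pou5f1, Esrrb and Zfp42 were saturated on 11 of the 12 arrays and Dppa5a on all 12, whereas the single named Nanog probe was dim and well above background on 10. Of 18 markers of other cell types, 11 were well above background on all 12 arrays, among them Otx2 (log2 levels of 0.61 to 3.01), Thy1 (1.69 to 3.32), Eomes (-2.14 to -0.73), Sox17, Sox1 and Col1a2. Cdx2, Elf5, Gata3 and T were well above background on 8, 6, 7 and 2 arrays and reached the floor of -4.86. The 12 arrays sat on 3 slides. Replicate 1 of the EGFP, Mbd2, Mbd3 and Dnmt1 KD shared slide 1, and replicate 2 of the Chd4, Mbd2, Mbd3 and Dnmt1 KD shared slide 3, which thus had no control. EGFP KD replicate 2 sat on slide 2 with Chd4 KD replicate 1 and both Tet1 KD arrays.

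The targeted genes were low on the arrays of their own KD for Dnmt1 (differences of -1.63 and -2.34), Mbd3 (-3.07 and -2.85 on 1 of its 2 probes) and Chd4 (-1.54 and -1.01). For Tet1 and Mbd2 they went against the labels on 1 array each. On the array labelled Tet1 KD replicate 1, the Tet1 probe A_55_P2122997 differed from the EGFP KD mean by -0.02 and the Mbd2 probe A_66_P133043 by -1.74. The array labelled Mbd2 KD replicate 1 showed the opposite, with the Tet1 probe at -1.78 and the Mbd2 probe at -0.23. The remaining array of each label, replicate 2, stood at -1.81 for Tet1 in the Tet1 KD and at -1.77 for Mbd2 in the Mbd2 KD, while the other Mbd2 probe, A_55_P2036526, stood at -0.07 on both Mbd2 KD arrays. The labels were kept. Without these 2 arrays, the Tet1 KD and the Mbd2 KD are each 1 array, so that the fitted difference of any probe equals the value printed for replicate 2, and the fitted differences of the Dnmt1, Mbd3 and Chd4 KD do not move. Their standard errors and p do, and are given where a result turns on them.

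In the mouse genome (RefSeq, GRCm38.p6) Tet1 spans chr10:62804570-62887469 on the minus strand, Tet2 chr3:133463677-133545136 on the minus strand, Tet3 chr6:83362373-83457208 on the minus strand and Tdg chr10:82629814-82650799 on the plus strand. Promoters are shown as context because CpG dinucleotides, the letters CG read on either strand, are the substrate sites of this pathway. The arrays measured neither methylation nor binding there. Each RefSeq window is 300 bases long and belongs to 1 annotated transcript start of the gene. The Tet2 and Tet3 windows lie wholly within the gene spans given above, so they do not mark the outermost start of those genes. The windows held 17 CpG in Tet1, 57 in Tet2, 22 in Tet3 and 26 in Tdg, against a median of 7 over the 32851 promoters in the table, of which 94.6% held at least 1. As many CpG as in Tet1 were found in 31.4% of all promoters, as many as in Tet3 in 23.1% and as many as in Tdg in 16.9%. The Tet2 window was unusual in this respect, since only 0.152% of promoters held as many. The windows of Tet1 (chr10:62887275-62887574, minus strand) and Tet2 (chr3:133544341-133544640, minus strand), the genes with the largest differences from the EGFP KD, read as follows from 5′ to 3′, with every CpG in capitals.
Tet1 promoter: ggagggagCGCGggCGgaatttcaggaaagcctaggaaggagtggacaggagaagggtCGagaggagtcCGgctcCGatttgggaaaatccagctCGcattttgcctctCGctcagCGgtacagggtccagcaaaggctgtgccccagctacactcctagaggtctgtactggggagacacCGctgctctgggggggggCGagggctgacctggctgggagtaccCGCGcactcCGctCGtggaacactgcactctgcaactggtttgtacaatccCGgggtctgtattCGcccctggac
Tet2 promoter: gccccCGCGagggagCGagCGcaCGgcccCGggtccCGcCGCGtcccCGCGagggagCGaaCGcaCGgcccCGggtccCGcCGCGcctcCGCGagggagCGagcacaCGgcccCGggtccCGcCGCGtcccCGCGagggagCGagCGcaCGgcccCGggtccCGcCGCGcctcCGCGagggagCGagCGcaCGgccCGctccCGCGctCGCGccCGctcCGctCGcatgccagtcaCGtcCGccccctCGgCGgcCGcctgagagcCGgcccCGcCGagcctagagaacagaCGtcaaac

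None of the 4 genes changed past the threshold in any KD. Among 50 comparisons of a probe in a KD with the EGFP KD, 0 had an adjusted p under 0.05 and 1 had an unadjusted p under 0.05, which was Tet2 in the Chd4 KD. Over all probes tested, 0% were called at the adjusted threshold in the Dnmt1 KD, 0% in the Tet1 KD, 0.762% in the Mbd3 KD, 0% in the Mbd2 KD and 3.13% in the Chd4 KD. At the unadjusted threshold these shares were 4.86%, 3.12%, 9.78%, 2.2% and 12.9%. The 2 arrays of a KD did not overlap the 2 of the EGFP KD for 3 of the 10 probes in the Dnmt1 KD (21.2% of all probes), 2 in the Tet1 KD (35.4%), 1 in the Mbd3 KD (30.2%), 3 in the Mbd2 KD (22.7%) and 5 in the Chd4 KD (38.2%). With 10 probes, each of these counts was within about 2 probes of the share of all probes.

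**Figure D1:**
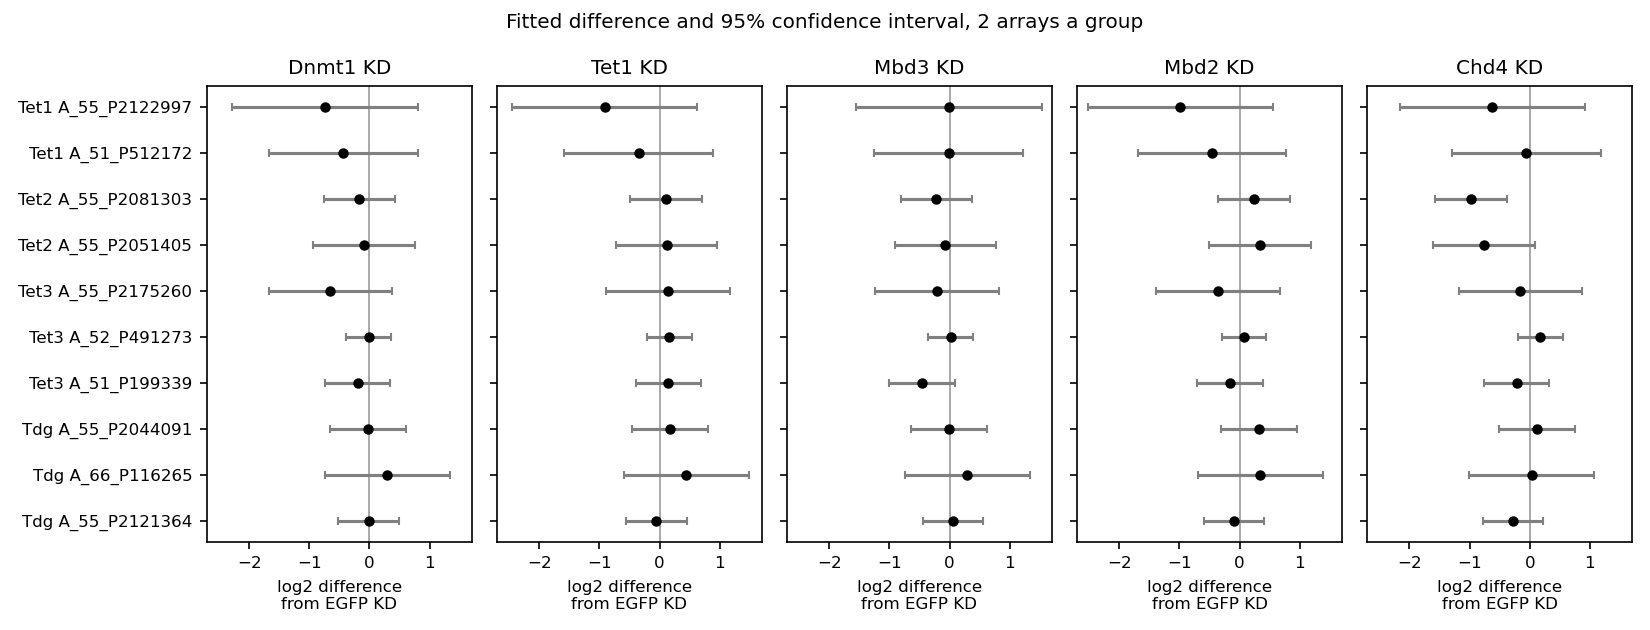
Difference of each KD from the EGFP KD (x axis, log2) for the 10 Tet and Tdg probes, 1 panel per KD. Points are limma estimates over 2 against 2 arrays and bars their 95% confidence intervals, and the only interval that does not reach 0 is that of Tet2 probe A_55_P2081303 in the Chd4 KD (-1.57 to -0.38).

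Tet1 encodes a dioxygenase with a CXXC domain that binds CpG-rich DNA, and it was the target of 1 KD. Its brighter probe, A_55_P2122997, differed from the EGFP KD mean by 0.07 and -0.07 on the EGFP KD arrays, and by 0.10 and -0.11 on the Mbd3 KD arrays, which overlapped them. The Dnmt1 KD arrays, at -0.60 and -0.88, and the Chd4 KD arrays, at -0.70 and -0.54, all lay below both controls. Their signals were 66.0% and 54.4% of the EGFP KD mean in the Dnmt1 KD and 61.6% and 68.7% in the Chd4 KD. The array labelled Tet1 KD replicate 1 stood at -0.02, within the controls, and replicate 2 at -1.81, which is 28.5% of the EGFP KD mean. The array labelled Mbd2 KD replicate 1 stood at -1.78, or 29.0%, and replicate 2 at -0.19. The lowest arrays of the 12 thus carried 2 different labels.

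The residual spread of this probe was wide (SD 0.65), and no difference was past the threshold. The fitted difference was -0.91 in the Tet1 KD (limma adjusted p = 1), -0.98 in the Mbd2 KD (adjusted p = 1) and -0.00 in the Mbd3 KD. It was -0.74 (SE 0.65, adjusted p = 0.949) in the Dnmt1 KD and -0.62 (SE 0.65, adjusted p = 0.856) in the Chd4 KD, with 95% intervals of -2.28 to 0.80 and -2.16 to 0.92. Without the 2 arrays that went against their labels, the same differences had a standard error of 0.14. Those arrays were set apart by the values of this probe and an Mbd2 probe, so the smaller standard error follows from that choice. Neither difference was past the threshold in that fit either. The 1 remaining Tet1 KD array gave -1.81 (SE 0.18, adjusted p = 0.654), with the lone array assumed to vary like the other groups, and the remaining Mbd2 KD array gave -0.19. Against the control of the same slide, the difference was -0.66 for Dnmt1 KD replicate 1, -0.63 for Chd4 KD replicate 1 and 0.03 for Mbd3 KD replicate 1.

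The dimmer Tet1 probe, A_51_P512172, ran with the brighter one (Pearson r = 0.863 over the 12 arrays, 0.983 after each slide was centred, given as a description of probes that share each array's RNA and hybridisation). It stood at -0.22 and 0.22 in the EGFP KD, -0.51 and -0.36 in the Dnmt1 KD, 0.23 and -0.93 in the Tet1 KD, and -1.18 and 0.26 in the Mbd2 KD. Both Dnmt1 KD arrays were again below both controls. In the Chd4 KD this probe stood at -0.16 and 0.05, between the controls. Chd4 KD replicate 1 was, however, lower than the control of its own slide by 0.38, and with slide as a block the Chd4 KD difference was -0.38. In the Mbd3 KD it stood at -0.19 and 0.16, also between them. The fitted difference was -0.43 (SE 0.52, adjusted p = 0.959) in the Dnmt1 KD and -0.05 (adjusted p = 1) in the Chd4 KD. Without the 2 arrays named above, which were set apart by Tet1 and Mbd2 values, the Dnmt1 KD difference had a standard error of 0.21.

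**Figure D2:**
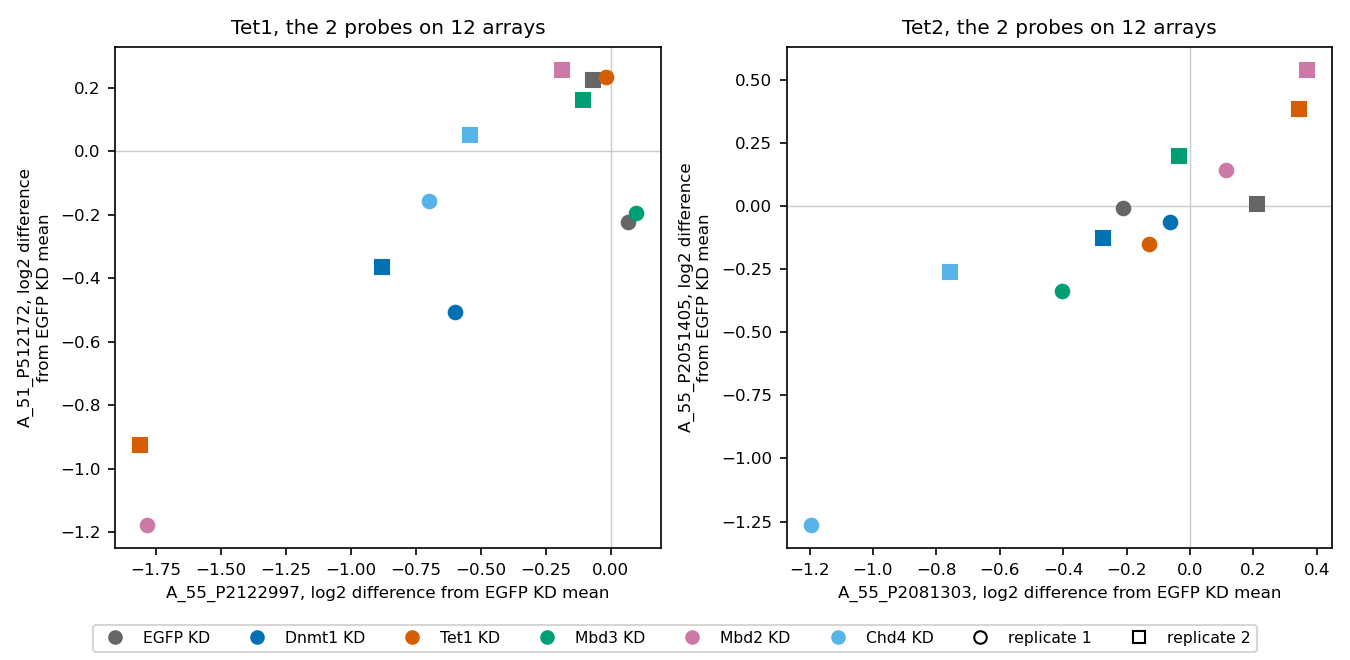
The 2 Tet1 probes (left) and the 2 Tet2 probes (right) against each other, each as the log2 difference from its EGFP KD mean, with 1 point per array for all 12 arrays. For Tet1 the arrays labelled Tet1 KD replicate 2 and Mbd2 KD replicate 1 sit lowest, and for Tet2 the array lowest on both axes is Chd4 KD replicate 1 (-1.19 and -1.27).

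Tet2 encodes a dioxygenase without its own CXXC domain, and its 2 probes were both lowest in the Chd4 KD. Probe A_55_P2081303 stood at -0.21 and 0.21 on the EGFP KD arrays and at -1.19 and -0.76 on the Chd4 KD arrays. The latter were 43.7% and 59.2% of the EGFP KD mean and lay below every other array of the series. The other values were -0.06 and -0.27 in the Dnmt1 KD, -0.13 and 0.34 in the Tet1 KD, -0.40 and -0.04 in the Mbd3 KD and 0.11 and 0.37 in the Mbd2 KD, each group overlapping the controls. The fitted difference in the Chd4 KD was -0.98 (SE 0.25, unadjusted p = 0.006), a fold of 0.51, but did not pass adjustment (adjusted p = 0.113). In the other KD it was -0.17, 0.11, -0.22 and 0.24, in the order Dnmt1, Tet1, Mbd3 and Mbd2. It kept its sign in all 28 alternatives, with values of -1.40 to -0.76, and passed the threshold in 2 of the 27 that gave a test. These were the fit with the replicate number as a block (adjusted p = 0.0393) and the fit with slide as a random block (-1.07, adjusted p = 0.0436). With slide as a fixed block the Chd4 KD difference was -1.10 and not past the threshold (limma adjusted p = 0.112). Without the 2 arrays that went against their labels, the adjusted p was 0.194.

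The second Tet2 probe, A_55_P2051405, stood at -0.01 and 0.01 in the EGFP KD and at -1.27 and -0.26 in the Chd4 KD, where replicate 1 was much the lower. Its other values ran from -0.34 to 0.54, so that Chd4 KD replicate 2 was above Mbd3 KD replicate 1 (-0.34). The fitted difference in the Chd4 KD was -0.76 (SE 0.36, unadjusted p = 0.0699, adjusted p = 0.465), with a 95% interval of -1.61 to 0.08. The probes ran together over the 12 arrays (r = 0.924, or 0.971 after slides were centred). Chd4 KD replicate 1 shared its slide with EGFP KD replicate 2, and within that slide it was lower by 1.40 on the first probe and by 1.27 on the second. Chd4 KD replicate 2 sat on the slide with no control, where the first probe was 0.58 below the mean of the 4 arrays and Dnmt1, Mbd3 and Mbd2 KD were at -0.10, 0.14 and 0.54 from it.

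Tet2 was also compared between KD. Of 100 comparisons of a probe between a pair of KD, 0 had an adjusted p under 0.05 and 7 an unadjusted p under 0.05, of which 6 were Tet2 with the Chd4 KD on 1 side. Over all probes, the adjusted calls in a pair with the Chd4 KD were 3.1% for the Mbd2 KD, 2.84% for the Tet1 KD, 2.61% for the Dnmt1 KD and 1.51% for the Mbd3 KD. In the other pairs they were 0.641% for Dnmt1 against Mbd3, 0.515% for Tet1 against Mbd3, 0.493% for Mbd3 against Mbd2 and 0% among the Dnmt1, Tet1 and Mbd2 KD. On probe A_55_P2081303 the Chd4 KD was lower than the Mbd2 KD by 1.22 (adjusted p = 0.0557), lower than the Tet1 KD by 1.08 (adjusted p = 0.0858), lower than the Dnmt1 KD by 0.81 (adjusted p = 0.194) and lower than the Mbd3 KD by 0.76 (adjusted p = 0.302). At the unadjusted threshold, the share of all probes was 13% for the Mbd2 KD against the Chd4 KD, 13.2% for Tet1 against Chd4, 13.1% for Dnmt1 against Chd4 and 10.3% for Mbd3 against Chd4. It was 12.1% for Tet1 against Mbd3, 8.03% for Dnmt1 against Mbd3, 7.52% for Dnmt1 against Tet1, 7.07% for Mbd3 against Mbd2, 4.93% for Tet1 against Mbd2 and 3.61% for Dnmt1 against Mbd2. The 2 arrays that went against their labels were set apart by Tet1 and Mbd2 values, so Tet1 comparisons without them would follow from that choice. On the same Tet2 probe, without these arrays, the Chd4 KD was lower than the Mbd2 KD by 1.35 and lower than the Tet1 KD by 1.32. Neither difference was past the threshold. A test for any difference among the 6 groups gave an unadjusted p of 0.0189 and an adjusted p of 0.245 for this probe, the only 1 of the 10 under the unadjusted threshold, which 12.2% of all probes passed, whereas 2.21% passed the adjusted one.

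**Figure D3:**
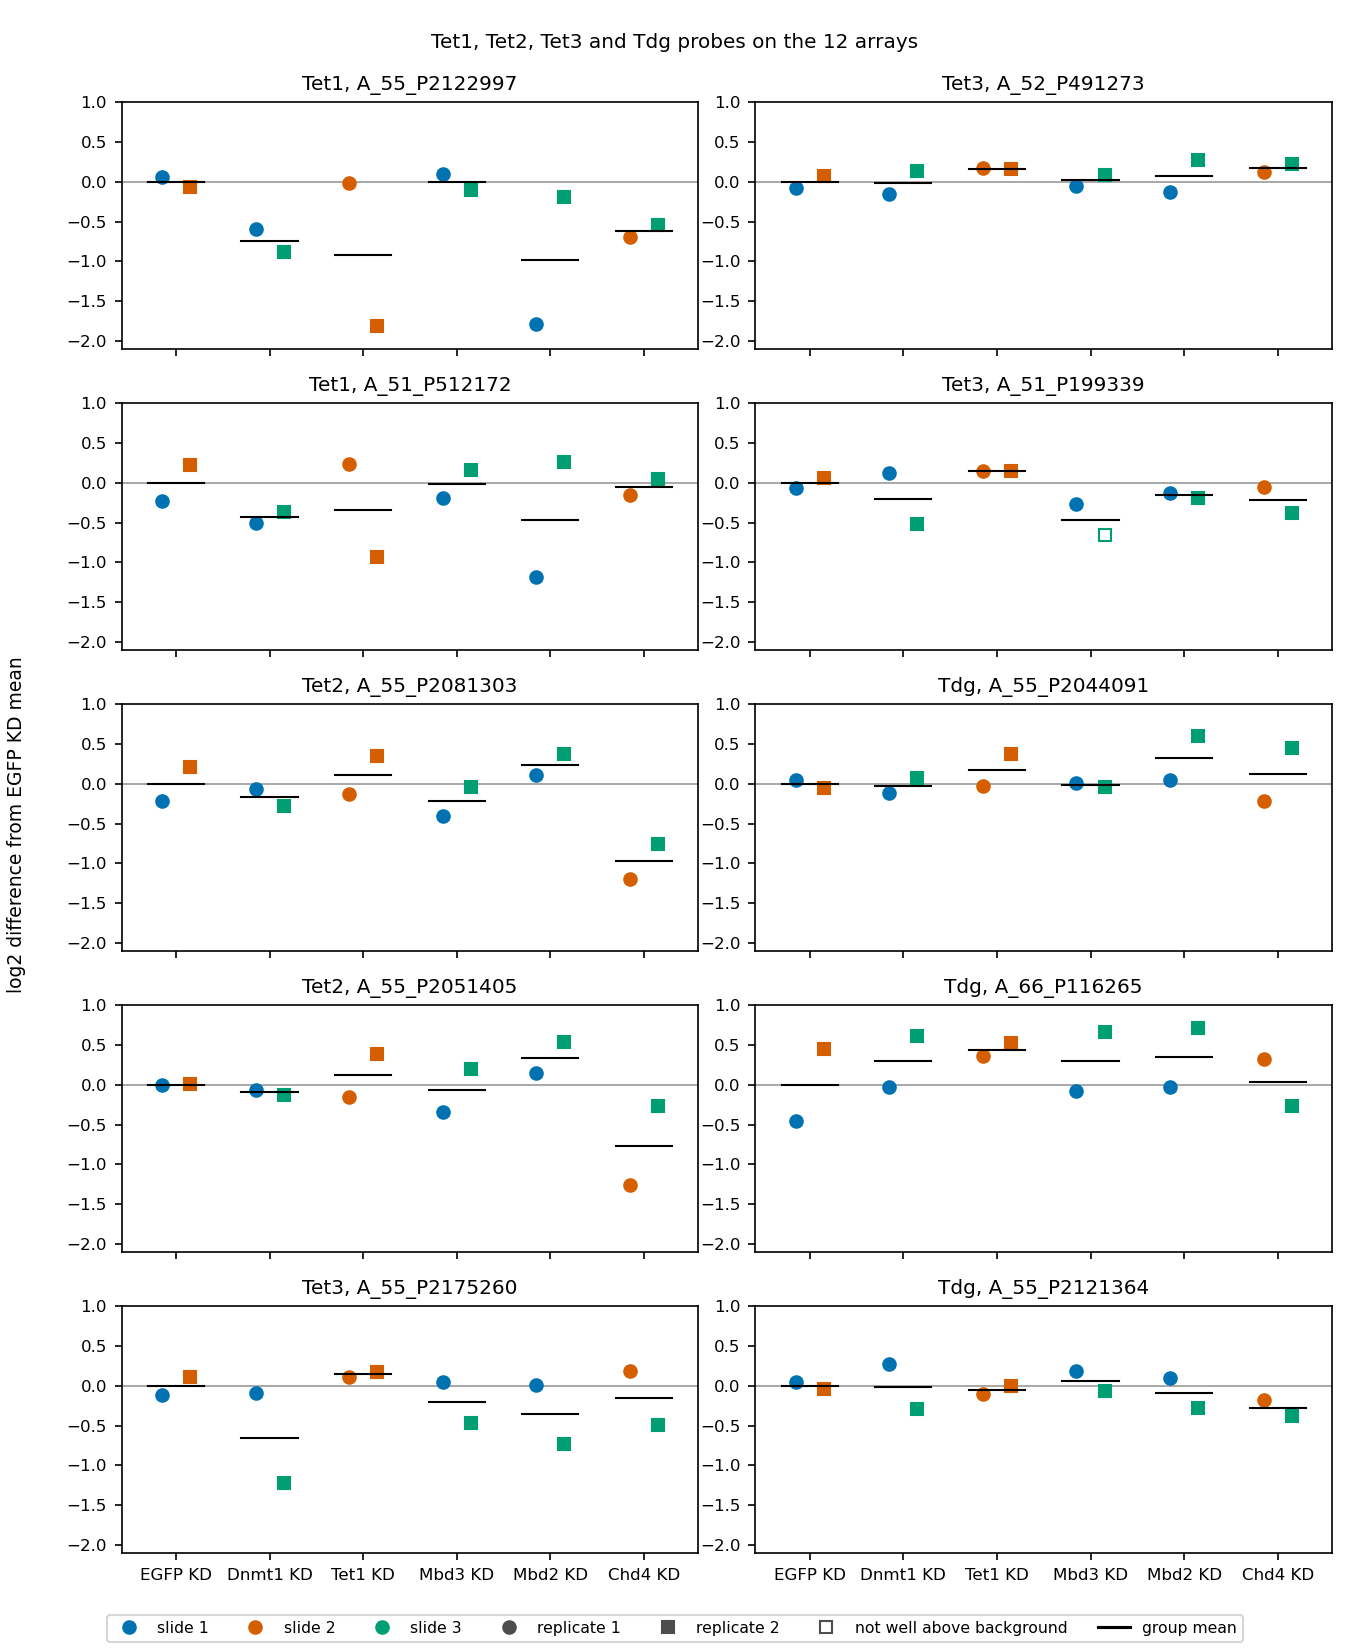
Log2 difference from the EGFP KD mean (y axis) on each of the 12 arrays, 1 panel for each of the 10 probes, grouped by KD (x axis). Colour marks the slide, circles and squares replicates 1 and 2, open symbols a spot not well above background, and lines group means; the Chd4 KD is lowest for Tet2, and the 4 slide 3 arrays are lowest for Tet3 probe A_55_P2175260.

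Tet3, the dioxygenase best known for oxidising the paternal genome after fertilisation, did not differ from the EGFP KD past the threshold in any KD on any of its 3 probes. The brightest, A_55_P2175260, stood at -0.11 and 0.11 in the EGFP KD. The 4 arrays of slide 3 had the lowest values, at -1.22 in Dnmt1 KD replicate 2, -0.73 in Mbd2 KD replicate 2, -0.50 in Chd4 KD replicate 2 and -0.46 in Mbd3 KD replicate 2. The other arrays ran from -0.11 to 0.05 on slide 1 and from 0.11 to 0.19 on slide 2, so the slides did not overlap. The largest fitted difference, -0.65 in the Dnmt1 KD (SE 0.43, adjusted p = 0.949), rested on replicate 2, since replicate 1 was at -0.09, and was -0.24 with slide as a block. Slide 3 held no EGFP KD array, so these 4 arrays had no control of their own slide. The fit with slide as a block draws on replicate 1 of these KD on the other slides. It gave 0.21 in the Mbd3 KD, 0.05 in the Mbd2 KD and 0.22 in the Chd4 KD. The cause of the low slide 3 values was not tested.

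The other Tet3 probes varied less. Probe A_52_P491273 lay between -0.16 and 0.27 on all 12 arrays, with -0.16 to -0.05 on slide 1 and 0.07 to 0.27 on slides 2 and 3. Probe A_51_P199339 was dim, with processed signals of 56.6 to 123, and was well above background on 11 of the 12 arrays, with -0.65 to -0.19 on slide 3 and -0.27 to 0.15 on the others. The exception was Mbd3 KD replicate 2, the lowest array at -0.65, and the Mbd3 KD difference of -0.46 (SE 0.23, adjusted p = 0.629) rests on it in part. With slide as a block that difference was -0.26. Over the 12 arrays the brightest probe had r of 0.72 with this dim probe and -0.36 with A_52_P491273, and the latter 2 had r of -0.19 with each other. After slides were centred these were -0.14, 0.13 and 0.41, so the r of the brightest and the dim probe was seen across slides and not within them.

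Tdg, the glycosylase that acts after the Tet enzymes, was likewise not called in any KD. Its brightest probe, A_55_P2044091, stood at 0.05 and -0.05 in the EGFP KD, -0.12 and 0.07 in the Dnmt1 KD, and 0.01 and -0.04 in the Mbd3 KD. In each of the remaining groups 1 array was clearly above the controls and the other was not, with values of -0.02 and 0.37 in the Tet1 KD, 0.04 and 0.60 in the Mbd2 KD, and -0.22 and 0.45 in the Chd4 KD. Replicates of those KD therefore differed from each other by more than their means differed from the EGFP KD.

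Probe A_66_P116265 of Tdg stood at -0.45 to -0.02 on the 4 arrays of slide 1, at 0.32 to 0.52 on those of slide 2 and at -0.26 to 0.71 on those of slide 3, which spanned both. The EGFP KD arrays, on slides 1 and 2, stood at -0.45 and 0.45 and spanned all other arrays but 4. Against the control of slide 1, replicate 1 was higher by 0.43 in the Dnmt1 KD, 0.37 in the Mbd3 KD and 0.43 in the Mbd2 KD. With slide as a block the differences were 0.50, 0.51 and 0.55 in that order, with adjusted p of 0.319, 0.187 and 1. Probe A_55_P2121364 lay between -0.38 and 0.27, with both Chd4 KD arrays, at -0.18 and -0.38, below the controls at 0.04 and -0.04. The fitted difference there was -0.28 (SE 0.21, adjusted p = 0.768), and -0.09 with slide as a block, as this probe was also lower on slides 2 (-0.18 to 0.00) and 3 (-0.38 to -0.07) than on slide 1 (0.04 to 0.27). Over the 12 arrays the brightest Tdg probe had r of 0.12 with A_66_P116265 and -0.49 with A_55_P2121364, and the latter 2 had r of -0.35 with each other. After slides were centred these were -0.17, -0.23 and 0.64.

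The wider pathway was described with 39 other genes in 6 lists, each by its brightest tested probe. In the Mbd3 KD 1 of the 39 was called (lower), or 2.56%, against 1.11% of all 19228 genes and 0.411% called lower. In the Chd4 KD 1 of the 39 was called (lower), against 4.27% of all genes and 1.72% called lower. In the Dnmt1, Tet1 and Mbd2 KD 0 of 39 were called, as were 0% of all genes. The median difference of the 39 genes was -0.24 in the Mbd3 KD and -0.28 in the Chd4 KD, beside -0.03 and 0 over all genes, and -0.05, -0.04 and -0.01 in the Dnmt1, Tet1 and Mbd2 KD, beside -0.02, 0.05 and -0.01. The genes below the EGFP KD numbered 27 in the Dnmt1 KD, 24 in the Tet1 KD, 23 in the Mbd3 KD, 20 in the Mbd2 KD and 30 in the Chd4 KD, of 39. The share of all genes below the EGFP KD was not computed, so these counts cannot be set against a background.

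The gene called in the Mbd3 KD was Gadd45g, a stress-response protein that has been linked to DNA demethylation. Its log2 levels were 0.36 and 0.36 in the EGFP KD and -1.16 and -1.08 in the Mbd3 KD, without overlap. It fell by 1.48 on the log2 scale (SE 0.14, adjusted p = 0.0115), that is to 35.9% of the EGFP KD. The call was lost without the 2 arrays that went against their labels (adjusted p = 0.0607), with slide as a block (adjusted p = 0.0558), without EGFP KD replicate 1 or 2 (0.0795 and 0.0616) and without Mbd3 KD replicate 1 or 2 (0.0883 and 0.0527). In these fits the log2 difference remained between -1.52 and -1.44. The call was also lost with normexp background correction (-1.19, limma adjusted p = 0.222) and on the 4 arrays of the comparison alone (-1.48, limma adjusted p = 0.464). So it was without the 2 arrays and with slide as a block together (-1.49). Parp1, which senses DNA strand breaks, stood at -0.83 and -0.59 in the Mbd3 KD (fitted -0.71, SE 0.12, adjusted p = 0.0595). Its difference was -0.24 (adjusted p = 0.662) with normexp background correction, and it passed the threshold with slide as a random block (adjusted p = 0.0258).

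The gene called in the Chd4 KD was Hmces, which binds abasic sites and has been described as a reader of oxidised cytosine. Its log2 levels were 4.56 and 4.95 in the EGFP KD, both saturated, and 3.61 and 3.47 in the Chd4 KD. With the saturated spots at their value the log2 difference was -1.21 (SE 0.14, adjusted p = 0.00592), a fitted level 2.32-fold lower. Saturation can hide part of the control signal, so 2.32 is an estimate and not a lower bound. Over the alternatives the Hmces difference ran from -1.41 to -1.02. Without Chd4 KD replicate 2 the adjusted p was 0.053. Of the other genes, the glycosylase Smug1 (-0.48, adjusted p = 0.083) and the CXXC protein Cxxc5 (-0.57, adjusted p = 0.088) came nearest to the threshold in the Chd4 KD, and both passed it with slide as a random block (adjusted p of 0.00801 and 0.0322). The 4 readers had the lowest list median in the Chd4 KD (-0.40), and the 4 cofactor enzymes in the Mbd3 KD (-0.50), with 0 of those 4 called. In the other KD, where 0 genes were called, the genes with the smallest p included Gadd45g (-0.30) and D2hgdh (-1.07) in the Dnmt1 KD. The D2hgdh value rests on 1 probe whose EGFP KD arrays were far apart (log2 levels of -1.98 and -0.63), and it was -1.75 without EGFP KD replicate 1 and -0.33 with the mean of the gene's probes. In the Tet1 KD they included Ogt (-0.54, and -0.23 without the 2 arrays that went against their labels) and Ung (-0.19, and -0.28 without them). In the Mbd2 KD they were Ogt (-0.53, and -0.63 without them), Lig3 (0.33, and 0.44) and Neil1 (-0.36, and -0.53). Over the alternatives, Ogt in the Tet1 KD ran from -0.85, without Tet1 KD replicate 2, to -0.05, Ogt in the Mbd2 KD from -0.77 to -0.24, Lig3 from -0.08 to 0.44, Neil1 from -0.82 to 0.00 and Ung from -0.28 to -0.05. In the reported fit all of these had an adjusted p of at least 0.949. The other tested Ogt probe did not share the lower values, with fitted differences of 0.15 in the Tet1 KD and -0.07 in the Mbd2 KD.

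**Figure D4:**
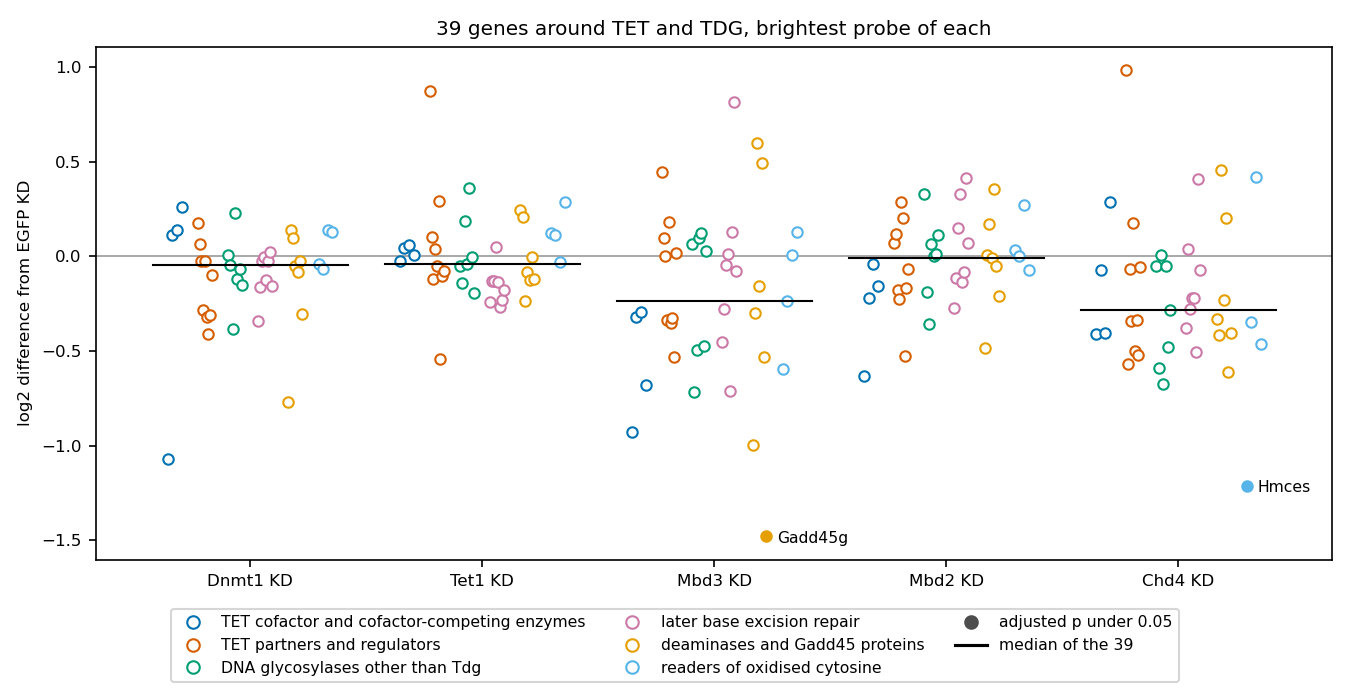
Log2 difference from the EGFP KD (y axis) of the 39 pathway genes, grouped by KD (x axis). Colour marks the 6 lists, each point is the brightest probe of a gene and each line is the median of the 39 genes in a KD. Filled points have an adjusted p under 0.05, which are Gadd45g in the Mbd3 KD (-1.48) and Hmces in the Chd4 KD (-1.21).

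Listed next are the genes with the probe that most closely followed each member's brightest probe over the 12 arrays, among 19377 candidate probes. They are given as a description, since all of them share the arrays and slides. For Tet1 they were Rcn3 (r = 0.862), Derl3 (0.841), Ahcy (0.809), Foxn4 (0.795) and Arid5a (0.790). For Tet2 they were Erg28 (0.970), Phf21a (0.964) and Lin28b (0.950), which kept r of 0.967 to 0.979 after slides were centred. For Tet3 they were Olfr1248, Ankub1 and Zbtb20 (0.984 to 0.985), and for Tdg Ndc1 (0.932), Pdzd8 (0.919) and Wdr35 (0.875). After slides were centred, r was 0.820 to 0.882 for the Tet1 genes, 0.922 to 0.926 for the Tet3 genes and 0.841 to 0.915 for the Tdg genes. Spearman's rank correlations of the Tet1 genes were 0.811, 0.706, 0.546, 0.636 and 0.909, in the order given above. The Tet1 probe was far lower on 2 arrays (-1.81 and -1.78) than on the others, and how far its r rests on them was not tested.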

How the data were processed

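Total RNA of 12 samples (6 groups of 2) was labelled with Cy3 and hybridised to 4x44K Agilent arrays by the authors. Deposited scanner files hold the processed signal, an intensity, from Agilent Feature Extraction 10.7.1.1. A series-wide table of log2 values, also deposited by the authors and without a stated scale, served as an alternative. From the processed intensity, signals were divided by each array's 75th percentile (1783.5 to 2445.1), set to a floor of 0.0344 and log2-transformed, and spots of a probe were averaged. Control spots and probes with an outlier mark were left out, and a probe was kept where 1 or more groups had it well above background on both of their arrays. Between 77.3% and 95.4% of spots were well above background, and the number of arrays limits the precision. Accessions gave symbols through RefSeq (GRCm38.p6) for 71.4% of spots. The probe design is for mm9, and no probe sequence was used here. limma 3.58.1 in R 4.3.3 (lmFit, eBayes) was fitted to the 6 groups with Benjamini-Hochberg adjustment and tested on simulated data. Figures used matplotlib 3.10.9.

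Named pathway genes were those called and the 3 with the smallest p in each KD, some of which are not reported here; likeness was ranked by Pearson's r with each member's brightest probe. The members and lists were chosen with earlier results of these data known. Alternatives covered scaling, background, floor, filter, slide, replicate block, single arrays left out and, added after seeing the data, both arrays that went against their labels.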

Additional observations from a re-analysis of the deposited data

How the results depend on the processing

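Of the 1335 recomputed member differences, 113 changed sign, 76 moved by more than the spread between replicates and 2 newly passed the threshold. Called member probes in the Chd4 KD, 0 in the reported fit, numbered 1 of 10 with a replicate block (4.26% of all probes). They numbered 1 with slide as a random block (6.47%) and 1 at an unadjusted p under 0.05 (12.9%). In the log2 values deposited by the authors, 2 of 4 member rows were called, both of Tet2. The test against 0 used there leaves out the control's own spread. The share of all rows called in those values was not computed, so that count cannot be set against a background. Called pathway genes in the Chd4 KD, 1 as reported, numbered 4 at an adjusted p under 0.1 (where 4.9% of all probes were called), 2 with a replicate block (4.26%), 3 with slide as a block (4.23%), 5 with slide as a random block (6.47%), 10 at an unadjusted p under 0.05 (12.9%), 0 with normexp (0.174%), 0 on the 4 arrays of the comparison alone (0%), 0 without both arrays that went against their labels plus a slide block (0%), and 0 to 1 when single arrays were left out. In the Mbd3 KD, 1 as reported, they numbered 2 at an adjusted p under 0.1 (1.56%), 2 with the mean of a gene's probes (0.697%), 2 without the filter (0.826%), 4 with slide as a random block (2.1%), 10 at an unadjusted p under 0.05 (9.78%), 0 with normexp (0.0056%), 0 with slide as a block (0.157%), 0 on the 4 arrays alone (0%), 0 without both arrays that went against their labels, with or without a slide block (0% in both), and 0 to 1 when single arrays were left out. The percentages beside these pathway gene counts are shares of probes rather than genes, save with the mean of a gene's probes. In the reported fit, 4.27% of genes by brightest probe and 3.13% of probes were called in the Chd4 KD. In the Mbd3 KD these shares were 1.11% and 0.762%. Gadd45g was called in 18 of 27 alternatives and Hmces in 23 of 27. At an adjusted p under 0.05, calls over all probes ran from 0 to 748 in the Mbd3 KD (272 as reported) and from 0 to 2308 in the Chd4 KD (1118 as reported). The causes were not tested.

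Between groups, the correlation of replicate 1 minus replicate 2 ran from -0.05 to 0.76 and was over 0.1 in 10 of 15 pairs of groups, including all pairs among the Dnmt1, Mbd3, Mbd2 and Chd4 KD (0.38 to 0.76), whose replicates lay on different slides. As it was not over 0.1 in every pair, the numbers were not taken as a pairing. With the number as a replicate block, Tet2 probe A_55_P2081303 in the Chd4 KD had an adjusted p of 0.0393.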
